A study of Mus musculus with 14 samples.

Results

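The 8 Gimap genes of the mouse, Gimap1, Gimap3, Gimap4, Gimap5, Gimap6, Gimap7, Gimap8 and Gimap9, lie side by side on chromosome 6 and were followed here in an assay for transposase-accessible chromatin with sequencing (ATAC-seq) of regulatory T (Treg) cells. The members were the windows of the deposited count table whose center had one of these genes as its nearest protein-coding start site, within 100 kb, which gave 139 of 240778 windows (0.0577% of them). Each window spans 201 bases on the GRCm38 build, and the members ran from position 48626950 to position 48803825, a stretch of 177 kb. Of the 139 windows, 94 overlapped another member window, and joined end to end they formed 77 separate regions. Gimap3 held 43 windows, Gimap9 24, Gimap8 19, Gimap7 16, Gimap6 13, Gimap5 11, Gimap1 7 and Gimap4 6. All 139 passed the filter on low counts (a mean of at least 10 reads over the libraries of a comparison).

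The 14 libraries came from sorted Treg cells of the spleen and lymph nodes of separate adult mice, which all carried Foxp3-AID, an allele that fuses Foxp3, the transcription factor that defines the Treg lineage, to a tag for drug-induced degradation and also makes a fluorescent reporter and Cre. All mice received the auxin analog 5-ph-IAA, for 3 or for 7 days. In the TIR1 groups (genotype Foxp3-AID ROSA26-TIR1(F74G)) the plant ubiquitin ligase adaptor TIR1(F74G) was driven by the CAG promoter at ROSA26 once Cre had removed a stop cassette, so the drug leads to loss of the tagged Foxp3 protein, while the control WT groups (Foxp3-AID ROSA26-WT) had no TIR1. There were 4 WT and 4 TIR1 mice at day 3, and 3 WT and 3 TIR1 mice at day 7. The controls thus shared the tagged Foxp3 allele and the drug, and the 2 genotypes differed in the sort as well, since TIR1 cells were gated on the additional fluorescent protein of the TIR1 allele, so TIR1 expression, its gate and Foxp3 loss cannot be told apart. For accessibility at day 7, the study describes resting and activated cells sorted from mice heterozygous for the tagged allele. In such mice Treg cells with untagged Foxp3 remain. The labels give only Treg and the genotype, so the activation state and the Foxp3 zygosity behind each library are not known here. ROSA26 is on the same chromosome, 64.3 Mb beyond the last member window.

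GIMAP proteins are small guanine nucleotide binding proteins that sit on internal membranes of lymphocytes, and the family is known above all for keeping resting T and B cells alive. GIMAP1 and GIMAP5 are needed for survival of mature lymphocytes, GIMAP6 takes part in autophagy through a GABARAP family partner, GIMAP4 has been tied to T cell death, and GIMAP3, the close relative of GIMAP5, affects how mitochondrial DNA is passed on. ATAC-seq counts reads where a transposase can reach the DNA, so a window with many reads is open chromatin such as an active promoter or enhancer, and the assay does not measure transcription.

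Short motifs were searched in the bases upstream of the start sites. All 8 genes had an entry in RefSeq (GRCm38.p6), and the search took 9 letter strings on both strands of the 250 bases before each start site, with overlapping strings each counted. The RUNX string TGTGGT, named for a family of T cell factors, was present upstream of Gimap7, Gimap4 and Gimap1, 3 of 8 genes, against 14% of 32851 mouse promoters. The forkhead string TGTTTAC, of the class of factors to which Foxp3 belongs, occurred upstream of Gimap3 alone and in 3.17% of promoters. The KLF/SP string GGGCGG lay upstream of Gimap7 and Gimap9 (32.7% of promoters), the STAT string TTCNNNGAA upstream of Gimap6 and the downstream start of Gimap8 (7.02%), and the E-box CAGGTG upstream of Gimap9 (17.2%). CCGGAA (ETS, 12% of promoters), GGGANTTCC (NF-kB, 1.43%), TGANTCA (AP-1, 6.75%) and CTTTGAA (TCF/LEF, 4.46%) were in none of the 8. The 250 upstream bases of the 4 genes with a RUNX or a forkhead string are given 5′ to 3′ on the strand of the gene, with every matched string in capitals. They lie at chr6:48718371-48718620 (Gimap7, plus strand), chr6:48684328-48684577 (Gimap4, plus strand), chr6:48738797-48739046 (Gimap1, plus strand) and chr6:48770852-48771101 (Gimap3, minus strand).
Gimap7: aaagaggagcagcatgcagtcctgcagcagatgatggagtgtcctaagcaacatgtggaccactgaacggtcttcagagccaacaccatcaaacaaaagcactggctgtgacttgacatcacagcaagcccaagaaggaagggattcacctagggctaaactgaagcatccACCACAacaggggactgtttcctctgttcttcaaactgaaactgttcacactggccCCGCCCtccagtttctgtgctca
Gimap4: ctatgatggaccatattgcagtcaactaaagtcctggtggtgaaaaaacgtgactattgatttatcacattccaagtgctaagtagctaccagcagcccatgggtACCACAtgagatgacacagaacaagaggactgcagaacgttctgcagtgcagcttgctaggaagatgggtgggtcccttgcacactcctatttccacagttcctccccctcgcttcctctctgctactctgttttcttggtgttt
Gimap1: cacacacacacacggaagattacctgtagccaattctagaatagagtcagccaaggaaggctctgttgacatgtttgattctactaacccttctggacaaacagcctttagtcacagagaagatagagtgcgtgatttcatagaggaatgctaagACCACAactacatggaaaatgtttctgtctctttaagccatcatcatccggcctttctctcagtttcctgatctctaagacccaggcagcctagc
Gimap3: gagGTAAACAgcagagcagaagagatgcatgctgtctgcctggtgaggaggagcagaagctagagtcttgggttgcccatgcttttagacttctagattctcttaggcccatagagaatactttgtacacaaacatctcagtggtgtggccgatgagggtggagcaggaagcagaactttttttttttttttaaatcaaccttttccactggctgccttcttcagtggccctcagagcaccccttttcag

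The capitals in Gimap7 are ACCACA, the RUNX string on the other strand, at positions -79 to -74 from the start site, and CCGCCC, the KLF/SP string on the other strand, at -23 to -18. Gimap4 had ACCACA at -145 to -140 and Gimap1 at -95 to -90, and Gimap3 had GTAAACA, the forkhead string on the other strand, at -247 to -241. The matches of Gimap7 and Gimap4 lay inside a counted window, and those of Gimap1 and Gimap3 did not. These matches are descriptions of the letters, not of factor binding.

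The depth of the 14 libraries ranged from 5653289 to 20184487 reads in windows, with a median of 15560985, and the shallowest was TIR1 replicate 1 at day 3. The member windows took 4088 to 14666 reads per library, between 0.0643% and 0.0758% of each total, and the range of this share overlapped between genotypes. In the check of the cell type, 5 of 6 markers of Treg and CD4 T cells had a window within 1 kb of their start site, and these 5 summed to between 47.0 and 65.7 CPM (reads in a window as a share of the library, in parts of 1000000) per library. Singly they had 4.55 (Cd4) to 15.2 CPM (Ctla4), percentiles 22.4 to 49.5 among the start-site windows of all genes. Foxp3 had no window within 1 kb of its RefSeq start but 3 within 100 kb, the nearest 3531 bases downstream. Of the B cell markers 1 of 5 had a start-site window (Ebf1, at 1.36 CPM), of the NK cell markers 0 of 3, of the endothelial markers 1 of 4, of the erythroid markers 1 of 2 and of the myeloid markers 3 of 5, at 1.12 to 1.57 CPM each. Cd8b1 had 12.5 CPM and Cd8a 1.33 CPM. The sums of these other cell type lists overlapped between the genotypes on each day. The Treg and CD4 T cell sum did so at day 3, while at day 7 it was 57.6 to 65.7 CPM in WT and 55.5 to 57.3 CPM in TIR1 mice, and its part in the day 7 values was not tested. Degradation acts on the Foxp3 protein, which accessibility does not measure, so the libraries hold no direct check of the depletion.

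The cluster was open in Treg cells in all 4 groups, and its most accessible windows were not at start sites. Levels are CPM per window scaled by the trimmed mean of M values (TMM), and as every window has the same length they can be compared between windows. The median member window had a mean of 2.99 CPM over the 14 libraries, against 1.80 CPM over all windows of the table. Of the 139 windows, 105 (75.5%) were above the median of all windows and 19 (13.7%) were in the top 10%. The window at chr6:48732951-48733152, 5996 bases upstream of the Gimap1 start and outside any protein-coding gene, was the highest, with 41.6 CPM (rank 1924 of 240778). The second, at chr6:48727853-48728054, was 9332 bases downstream of the Gimap7 start, beyond the 3′ end of that gene, with 34.3 CPM (rank 3235). Another window of the same interval, 7027 bases downstream of the Gimap7 start, had 23.0 CPM. The 9 windows of this interval between Gimap7 and Gimap1, which fell in 8 regions from 48725548 to 48733873, held 20.2% of all reads of the cluster. The 49 windows within 1 kb of a member start site held 45.9% of the reads, 78 windows further out and outside protein-coding genes 44.5%, and 12 windows further out inside a Gimap gene 9.55%.

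**Figure D1:**
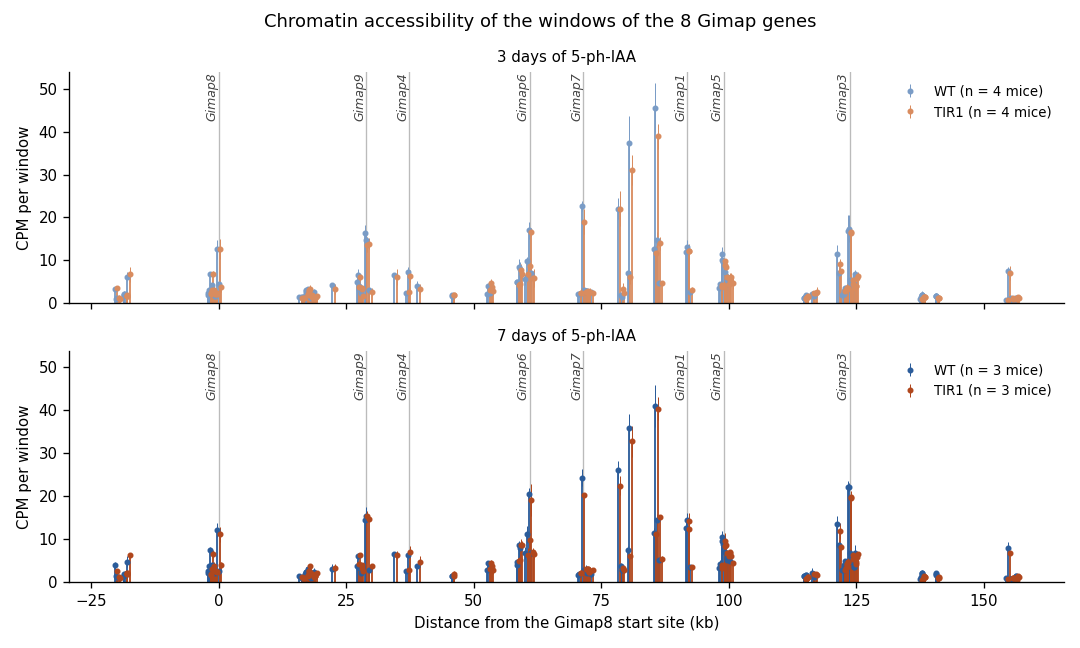
Mean CPM per window (y axis) of the 139 windows against the distance of the window center from the first Gimap8 start site in kb (x axis), at day 3 (top, 4 mice per genotype) and day 7 (bottom, 3 mice per genotype). Points are group means, error bars are SD, stems reach to 0, the 2 genotypes are shifted sideways for legibility, and gray lines mark the start sites. The tallest stems stand between Gimap7 and Gimap1, where the window at -5996 from Gimap1 reached means from 38.9 to 45.5 CPM.

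The most accessible start-site window belonged to Gimap7. Its window (4 bases downstream of the start, chr6:48718525-48718726) had 21.5 CPM over all libraries, which put it at percentile 63.3 among the start-site windows of 12054 genes, whose median was 15.5 CPM. Gimap3 followed with 18.5 CPM, Gimap6 with 18.1, Gimap9 with 14.98, Gimap1 and Gimap8 with 12.2 each, Gimap5 with 10.4 and Gimap4 with 6.79 CPM (percentile 29.3). Neighbors kept this order in 6 to 14 of the 14 libraries. Gimap7 was above Gimap3 in 10 of 14 libraries, Gimap3 above Gimap6 in 8, and Gimap1 above Gimap8 in 6. Further down, Gimap6 exceeded Gimap9 in 12 of 14 libraries, Gimap9 exceeded Gimap1 in 13, Gimap8 exceeded Gimap5 in 11 and Gimap5 exceeded Gimap4 in 14. The upstream bases of the 8 genes had 43.6% to 61.2% G and C, with Gimap6 lowest and Gimap9 highest, against a median of 52.4% over all promoters.

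**Figure D2:**
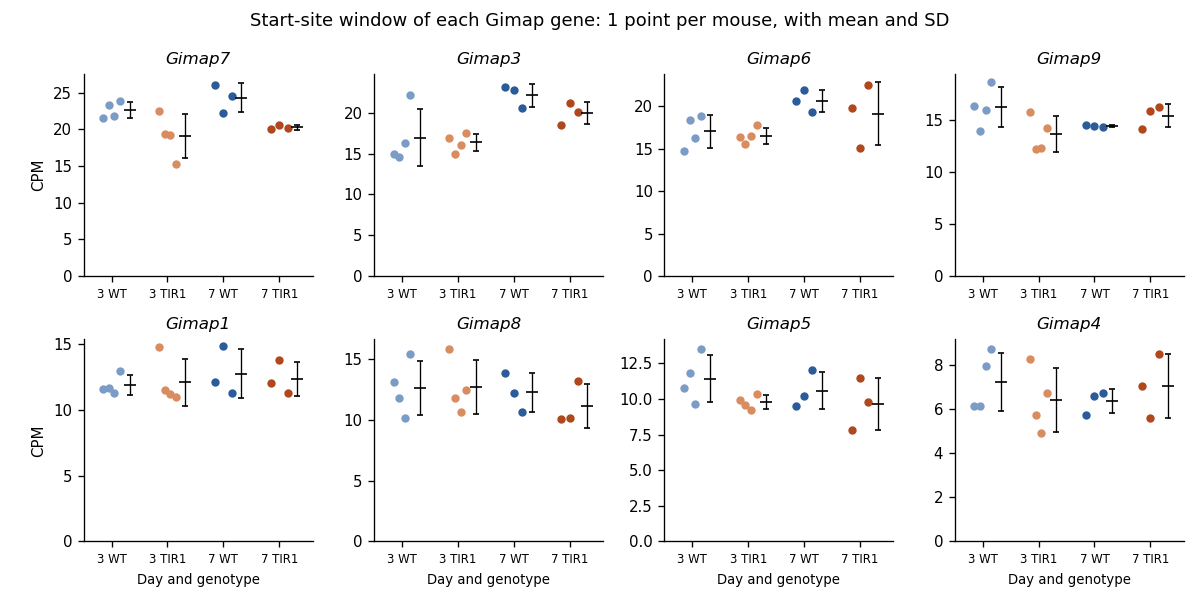
CPM of the start-site window of each Gimap gene (y axes, from 0) by day and genotype (x axes), 1 point per mouse, with the mean and SD of each group in black and genes ordered by mean level. The 2 genotypes overlapped at every gene on day 3, and on day 7 the Gimap7 window was between 20.1 and 20.6 CPM in TIR1 mice and between 22.2 and 26.1 CPM in WT mice.

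Foxp3 degradation for 7 days left no Gimap window past the threshold. The question was whether loss of Foxp3 protein changes access to these genes. Under the quasi-likelihood model of edgeR, with p-values adjusted by the Benjamini-Hochberg procedure across all windows, 0 of 139 windows had an adjusted p under 0.05 at day 7, against 0.00463% of all 237811 windows tested, and the smallest adjusted p of a member was 0.718. At an unadjusted p under 0.05 there were 9 members (6.47%, background 5.95%), 8 lower and 1 higher in TIR1 cells (background for lower 3.2%). DESeq2 gave 0 called and 6 at that unadjusted level, where it had 6367 of all 237811 windows. By edgeR the median log2 fold change of the members (TIR1 against WT) was -0.02, against -0.01 over all windows, and 54.0% of members were below 0 (background 51.0%). In 22 members the 2 genotypes did not overlap (15.8%, background 11.8%), 16 of them with TIR1 lower (background 6.02%). The overlapping windows of 1 region count several times in these numbers.

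The member with the smallest p at day 7 lay at the far left of the cluster, 20184 bases upstream of Gimap8 (chr6:48626950-48627151). It had 4.72, 3.72 and 3.30 CPM in the WT mice and 3.05, 2.62 and 2.07 CPM in the TIR1 mice. The TIR1 mice were all below the WT mice, with a log2 fold change of -0.63 ± 0.22 (SE, 95% interval -1.08 to -0.19). At day 3 the same window had 2.86, 3.18, 3.76 and 3.42 CPM in WT mice and 4.14, 3.65, 3.50 and 3.46 CPM in TIR1 mice, where the genotypes overlapped and the fold change was 0.13 ± 0.20. This window had a mean of 3.39 CPM over the 14 libraries, at percentile 71.9 of all windows.

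Gimap7, whose protein can pair with other GIMAP proteins, had the start-site window with the lowest TIR1 level relative to WT over both days. At day 7 it had 26.1, 22.2 and 24.6 CPM in WT mice and 20.1, 20.6 and 20.1 CPM in TIR1 mice. The TIR1 mice were all below the WT mice, with a log2 fold change of -0.26 ± 0.12 (SE, 95% interval -0.51 to -0.01) and an adjusted p of 0.833 by edgeR. At day 3 the WT mice had 21.6, 23.4, 21.9 and 23.8 CPM and the TIR1 mice 22.5, 19.4, 19.2 and 15.2 CPM. Here 1 TIR1 mouse reached into the WT range, and the fold change was -0.27 ± 0.13 (adjusted p = 0.642). Over both days it was -0.26 ± 0.09 (95% interval -0.44 to -0.09, unadjusted p = 0.00437, adjusted p = 0.54), and it ran from -0.30 to -0.21 when each library was left out in turn. This window contains the RUNX and KLF/SP strings printed for Gimap7.

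At the other start sites the day 7 differences were within the spread of the mice. Gimap3 had 23.2, 22.7 and 20.5 CPM in WT mice and 18.5, 21.2 and 20.1 CPM in TIR1 mice at its start-site window, a log2 fold change of -0.16 ± 0.12. Gimap6, the autophagy-linked member, had 20.5, 21.9 and 19.3 CPM against 19.8, 15.1 and 22.5 CPM (-0.11 ± 0.13). Gimap5, survival-linked as is Gimap1, had 9.497, 10.2 and 11.996 CPM against 7.81, 11.4 and 9.76 CPM (-0.11 ± 0.15). In these 3 genes WT and TIR1 mice overlapped. Gimap1, with 12.1, 14.8 and 11.2 CPM against 12.03, 13.8 and 11.3 CPM, differed by -0.07 ± 0.14 on the log2 scale. Gimap8 differed by -0.15 ± 0.15, Gimap9 by 0.10 ± 0.13 and Gimap4 by 0.16 ± 0.17. The 2 windows of highest level, in the interval between Gimap7 and Gimap1, also overlapped between genotypes. The one 5996 bases upstream of Gimap1 had 45.2, 42.2 and 35.5 CPM in WT and 37.6, 43.0 and 40.6 CPM in TIR1 mice (-0.03 ± 0.12, 95% interval -0.27 to 0.20), and the one 9332 bases downstream of Gimap7 had 38.4, 37.1 and 32.4 CPM against 29.7, 31.8 and 36.8 CPM (-0.14 ± 0.12).

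After 3 days of degradation, again, no window was past the threshold. The adjusted p was under 0.05 in 0 of 139 windows (background 0.0%, since no window of 235515 passed), and the smallest was 0.555 by edgeR. At an unadjusted p under 0.05 there were 10 members (7.19%, background 7.55%), 7 lower and 3 higher in TIR1 cells (background for lower 3.62%). DESeq2 gave 0 called and 6 at that level, where it had 11762 of all 235515 windows. By edgeR the median log2 fold change was -0.09, against 0.01 over all windows, and 72.7% of members were below 0 (background 48.8%). Overlapping member windows count several times in this share, and the background is not matched for depth. In the fit of both days 49.3% of all windows were below 0, but 65.9% of those averaging 100 reads or more. The part of depth in the day 3 share was not tested. Genotypes did not overlap in 2 members (1.44%, background 4.1%). With total counts in place of TMM scaling the member median was -0.04, against 0.06 over all windows. In that run 49 of 139 members were above 0 in place of 38. With 1 library left out the member median ran from -0.13 (without TIR1 replicate 4) to -0.05 (without TIR1 replicate 3, with 55 above 0). The median was also below 0 at day 3 for windows of genes of lymphocyte survival and quiescence (-0.06) and of the neighbors of the cluster (-0.05).

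The 2 most accessible windows were among the 10. The window 9332 bases downstream of Gimap7 had 30.7, 34.6, 38.9 and 45.4 CPM in WT mice and 35.2, 29.8, 26.9 and 32.2 CPM in TIR1 mice at day 3 (log2 fold change -0.28 ± 0.12, 95% interval -0.52 to -0.04, adjusted p = 0.6 by edgeR). The window 5996 bases upstream of Gimap1 had 42.3, 41.7, 44.3 and 53.9 CPM in WT mice and 43.0, 38.8, 37.2 and 36.7 CPM in TIR1 mice (-0.23 ± 0.11, adjusted p = 0.647). In both windows WT replicate 4 was the highest of the 8 mice and the genotypes overlapped, and without it the differences were -0.18 and -0.14. Gimap9 had 16.4, 14.02, 16.05 and 18.7 CPM in WT mice and 15.8, 12.3, 12.3 and 14.3 CPM in TIR1 mice at its start site, a difference of -0.27 ± 0.13. The smallest unadjusted p (0.0109) belonged to a weak window in the other direction, 7633 bases downstream of the Gimap7 start. There the WT mice had 1.64, 1.65, 1.78 and 2.36 CPM and the TIR1 mice 5.57, 2.04, 2.83 and 2.73 CPM, with a log2 fold change of 0.67 ± 0.25. The value of TIR1 replicate 1, the shallowest library, was the highest by far, and without it the fold change was 0.41.

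At the remaining start sites the day 3 differences were -0.24 ± 0.17 for Gimap4, -0.24 ± 0.14 for Gimap5, -0.06 ± 0.13 for Gimap3, -0.05 ± 0.13 for Gimap6, -0.03 ± 0.14 for Gimap8 and below 0.01 in size for Gimap1 on the log2 scale. Gimap5 had 10.7, 11.8, 9.63 and 13.5 CPM in WT mice and 9.89, 9.55, 9.24 and 10.4 CPM in TIR1 mice. Gimap3 had 14.9, 14.6, 16.3 and 22.1 CPM against 16.9, 14.97, 16.1 and 17.5 CPM, and its sign turned to 0.10 without WT replicate 4, the mouse at 22.1 CPM. Without the same mouse Gimap8 and Gimap6 also turned, to 0.09 and 0.01, Gimap1 was at 0.04, and Gimap4 and Gimap5 moved to -0.13 and -0.14. Gimap3 and Gimap5 are close copies of each other, so reads from stretches they share may be placed with uncertainty.

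**Figure D3:**
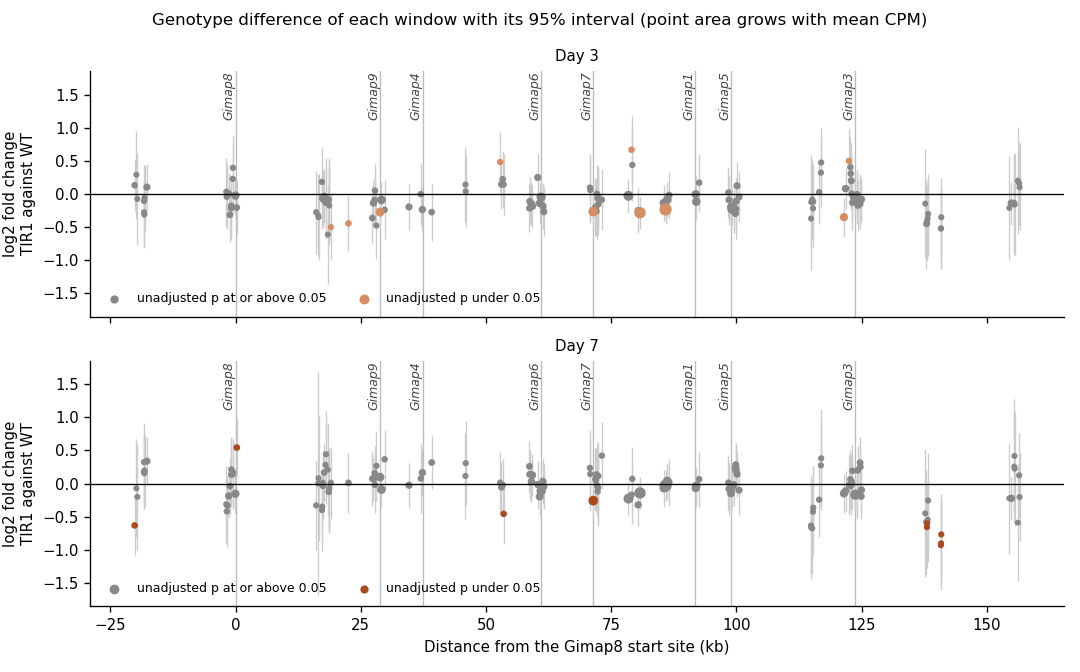
Log2 fold change of TIR1 against WT (y axis) for each of the 139 windows, with its 95% interval, against the distance from the first Gimap8 start site in kb (x axis), at day 3 (top) and day 7 (bottom). Point area grows with mean CPM and color marks an unadjusted p under 0.05, which 10 windows had at day 3 and 9 at day 7, none with an adjusted p under 0.05. The larger points lie near or just under 0 on both days, and the intervals of weak windows are wide.

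Fitting both days in 1 model, with the same mice as the fits by day, gave the narrowest intervals. Again 0 of 139 windows had an adjusted p under 0.05 by edgeR (background 0.0112%), and the smallest was 0.47. At an unadjusted p under 0.05 there were 11 members (7.91%, background 6.73%), all 11 lower in TIR1 cells (background for lower 3.57%). DESeq2 gave 0 called and 10 at that level, where it had 14153 of all 240778 windows. By edgeR the median log2 fold change was -0.07, against 0.00 over all windows, with 66.9% of members below 0 (background 49.3%). All 24 member windows with a mean of at least 100 reads, in 19 regions, had a fold change below 0, from -0.26 to -0.01. Below 0 was also the commoner side among all windows of that depth, with 65.9% of them. No member separated all 7 WT from all 7 TIR1 mice. The share of all windows that do is not given here, so this is a description only.

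Of the 11 windows, 8 belonged to Gimap3 and 7 of those lay far upstream of its start, in 2 groups of overlapping windows. The member with the smallest p was at chr6:48787956-48788157, 17205 bases upstream of Gimap3. At day 7 it had 1.55, 2.15 and 1.95 CPM in WT mice and 0.909, 1.25 and 0.860 CPM in TIR1 mice, and these did not overlap. At day 3 it had 1.99, 1.72, 1.16 and 2.36 CPM in WT mice and 1.26, 1.61, 0.969 and 1.13 CPM in TIR1 mice, which did overlap. The log2 fold change over both days was -0.69 ± 0.21 (SE, 95% interval -1.12 to -0.26, unadjusted p = 0.00219, adjusted p = 0.47), and it was between -0.82 and -0.61 when each library was left out. The windows centered 17246 and 17171 bases upstream share most of its bases and had -0.54 and -0.70. A separate group of windows between 14226 and 14530 bases upstream, singled out after the values were seen, had -0.45 to -0.52. These windows are weak, at 1.14 to 1.76 CPM, so each value rests on few reads.

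**Figure D4:**
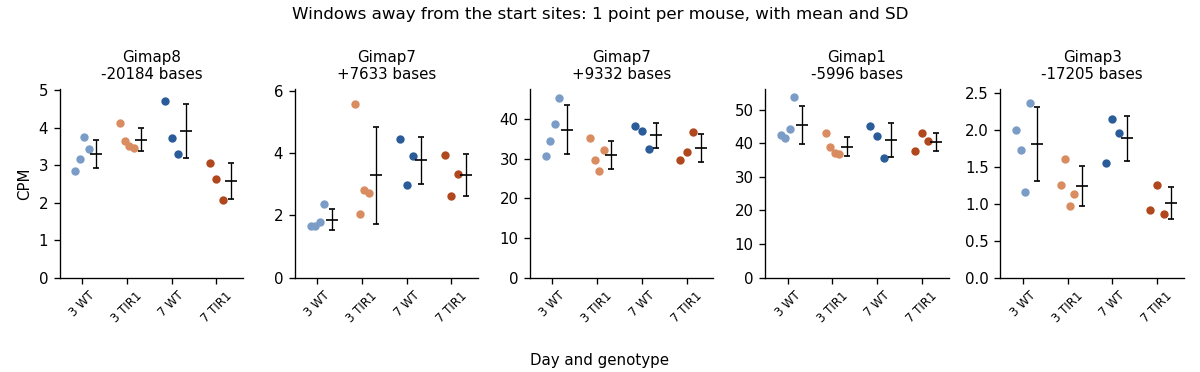
CPM (y axes, from 0) of the 5 described windows that lie over 1 kb from a start site, by day and genotype (x axes), 1 point per mouse with the mean and SD of each group in black. TIR1 mice were below all WT mice at day 7 in the windows 20184 bases upstream of Gimap8 and 17205 bases upstream of Gimap3, while the 2 strong windows between Gimap7 and Gimap1 overlapped between genotypes.

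Summed over all windows of a gene, the counts bounded the genotype differences more tightly. Sums of different genes are not compared as levels, since the genes have different numbers of overlapping windows. The adjusted p by edgeR was under 0.05 for 0 of 8 gene sums at day 7 (background 0.0% of 15962 genes), at day 3 (background 0.1%) and over both days (background 0.025%). None of the 8 had an unadjusted p under 0.05 in these comparisons. Among all genes 1175 of 15962 did at day 7, 2577 of 15967 at day 3 and 2118 of 15978 over both days. Summed without overlapping windows, 1 of the 8 did at day 7 (1238 of 15945 genes) and 1 over both days (2271 of 15969). Each was lower in TIR1 cells, and the smallest adjusted p of the 8 was 0.601 and 0.265 by edgeR. At day 7 the log2 fold changes ran from -0.12 ± 0.06 for Gimap7 to 0.14 ± 0.13 for Gimap4. The WT mice had 132.2, 129.6 and 111.0 summed CPM at Gimap7 and the TIR1 mice 114.8, 107.5 and 120.9. Gimap3 had 181.6, 178.5 and 159.8 summed CPM in WT mice and 152.4, 161.1 and 167.3 in TIR1 mice (-0.11 ± 0.06), so the genotypes overlapped at both genes. At day 3 the values ran from -0.13 ± 0.07 for Gimap9 to 0.02 ± 0.08 for Gimap8. Gimap9 had 92.2, 85.0, 85.7 and 97.4 summed CPM in WT mice and 85.1, 80.8, 69.5 and 83.6 in TIR1 mice. Over both days all 8 intervals lay between -0.20 and 0.22, which is 0.868-fold to 1.17-fold, so changes beyond these bounds were outside the 95% interval of every gene in that fit. The fits by day had wider bounds, 0.836-fold to 1.34-fold at day 7 and 0.782-fold to 1.15-fold at day 3. The 139 windows together had 717 ± 57.4 CPM in WT and 669 ± 54.3 CPM in TIR1 mice at day 3 (SD, n = 4), and 730 ± 40.5 and 709 ± 28.2 CPM at day 7 (SD, n = 3).

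**Figure D5:**
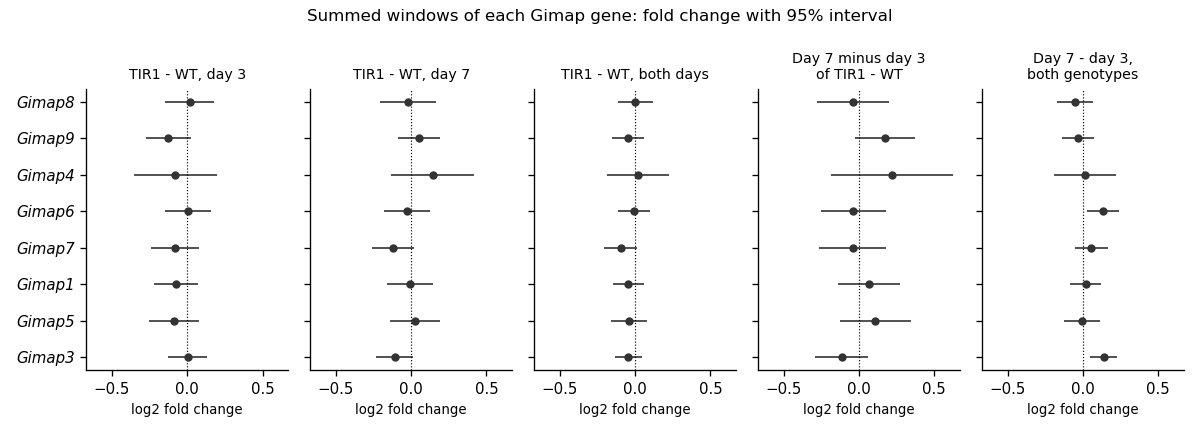
Log2 fold change of the summed windows of each Gimap gene (x axes) with its 95% interval, in 5 comparisons, with genes in their order along the chromosome. The intervals of TIR1 against WT include 0 for all 8 genes on each day and over both days, and those of day 7 against day 3 lie above 0 for Gimap6 and Gimap3.

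The genotype difference was not shown to depend on the day. For the interaction, the difference at day 7 minus that at day 3, 0 of 139 windows and 0 of 8 gene sums had an adjusted p under 0.05 by edgeR (background 0.0% for windows and 0.0% for genes). At an unadjusted p under 0.05 there were 6 members (4.32%, background 6.32%). DESeq2 gave 0 called and 4 at that level, where it had 11424 of all 240778 windows. The median by edgeR was 0.00. The smallest p was that of the window 20184 bases upstream of Gimap8, with -0.76 ± 0.29 (95% interval -1.35 to -0.18, adjusted p = 0.736). For the gene sums the interaction ran from -0.12 ± 0.09 for Gimap3 to 0.22 ± 0.20 for Gimap4, and the widest interval reached 0.62, so moderate differences between the days cannot be told from none at this number of mice.

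Between the days, over both genotypes, most of the windows with small unadjusted p-values belonged to Gimap3, and no member passed the threshold. By edgeR 0 of 139 windows and 0 of 8 gene sums had an adjusted p under 0.05 (background 0.00332% of windows and 0.0% of genes). At an unadjusted p under 0.05 there were 16 members (11.5%, background 5.47%), 14 of them higher at day 7 (background for higher 2.38%). DESeq2 gave 0 called and 17 at that level, where it had 11158 of all 240778 windows. Of the 16 by edgeR, 10 belonged to Gimap3, which held 43 of the 139 windows. Overlapping windows of a region count several times in these numbers. The Gimap3 start-site window had the smallest p, with 14.6 to 22.1 CPM in the 8 mice of day 3 and 18.5 to 23.2 CPM in the 6 mice of day 7. All but 1 of the day 3 mice, WT replicate 4, were below every day 7 mouse, and the log2 fold change was 0.34 ± 0.09 (SE, 95% interval 0.15 to 0.53, unadjusted p = 0.000677, adjusted p = 0.734). It was between 0.30 and 0.41 when each library was left out. The most accessible Gimap3 window, which shares most of these bases, had 0.30 ± 0.09. The start-site window of Gimap6 had 14.7 to 18.8 CPM at day 3 and 15.1 to 22.5 CPM at day 7, a log2 fold change of 0.25 ± 0.09 (95% interval 0.06 to 0.43). The summed windows gave 0.14 ± 0.04 for Gimap3 and 0.13 ± 0.05 for Gimap6 (adjusted p = 0.866 for both), and the other 6 genes had intervals that included 0. Day is shared with whatever else differed between the day 3 and the day 7 mice, and the part of that in these values was not tested.

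The summed levels of the 8 genes were positively correlated from mouse to mouse. After the group means were removed, the correlation between the log2 summed CPM of pairs of genes over the 14 libraries had a median of 0.64, from 0.29 to 0.84, and was above 0 in 28 of 28 pairs. The highest value was that of Gimap1 and Gimap3, which are not adjacent. Libraries share their depth and their scaling across all genes, and no background of other gene pairs is given. The correlations are thus a description, not shown to be particular to the cluster. Among 13750 genes with start sites more than 1 Mb away and a mean sum of at least 100 reads, those whose log2 sums were most like that of the whole cluster over the 14 libraries were Prc1 (chromosome 7, Pearson r = 0.96, Spearman rho = 0.95), Rfxank (chromosome 8, 0.94 and 0.85) and Ciao2a (chromosome 9, 0.94 and 0.85). Without the 2 libraries farthest from the median the Pearson values were 0.90, 0.84 and 0.90.

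Genes around the cluster and genes of related function gave no called windows either. The 20 protein-coding neighbors within 500 kb, of which 19 had windows, held 173 windows, and at day 7 14 of the 172 tested (8.14%, background 5.95%) had an unadjusted p under 0.05, with 0 at an adjusted p under 0.05 by edgeR. At day 3 10 of 167 (5.99%, background 7.55%) did. Of 17 genes of lymphocyte survival and quiescence, such as Bcl2, Il7r, Klf2 and Foxo1, 16 had windows, 884 in all. At day 7 57 of 883 (6.46%, background 5.95%) had an unadjusted p under 0.05, 37 higher and 20 lower in TIR1 cells, with a median log2 fold change of 0.03. Of all 237811 windows tested at day 7, 6548 were higher and 7601 lower at that level. At day 3 45 of 877 (5.13%, background 7.55%) did, 11 higher and 34 lower, against 9262 higher and 8518 lower of all 235515 windows. Over both days 61 of 884 (6.90%, background 6.73%) did, with a median of -0.02 and a smallest adjusted p of 0.0603. Of 12 genes of the autophagy conjugation machinery, which include the GIMAP6 partner gene Gabarapl2, all had windows. Of their tested windows, 4 at day 7 (3.31%, background 5.95%) and 13 at day 3 (10.6%, background 7.55%) had an unadjusted p under 0.05. For the 3 lists 0 windows and 0 gene sums passed at an adjusted p under 0.05 in each of the 5 comparisons by edgeR.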

How the data were processed

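ATAC-seq libraries were made from sorted Treg cells of 14 mice. Per the study's methods, the authors aligned reads with Bowtie2 (to mm10, GRCm38, per the submitters' processing notes), called peaks with MACS2, merged reproducible peaks into an atlas and counted reads with featureCounts. The deposited values are raw counts per window, not normalized, in 14 columns, all matched to samples by name. Windows were assigned to the nearest protein-coding start site (RefSeq, GRCm38.p6) within 100 kb. Counts were tested with edgeR 4.0.16 (R 4.3.3), with TMM scaling, a mean count of at least 10 and glmQLFTest over all windows or gene sums, with an adjusted p threshold of 0.05. Each day was fitted alone, and both days together with day as a term. Intervals are 95% from the fitted SE, and give the uncertainty of the estimated fold change, not the range of single mice. DESeq2 1.42.0 was an alternative. The fits were tested on simulated data. CPM were scaled by TMM over all 14 libraries. Described windows were the start-site window and the most accessible window of each gene, any past the threshold and the one with the smallest p in each comparison. The genes, lists and motifs were chosen with earlier results of these data known. No replicate was a duplicate: chi-square per degree of freedom was 1.63 or more in all 18 pairs. Same-numbered mice did not deviate together (correlations from -0.171 to 0.0559), so numbers were not taken as pairs.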

Additional observations from a re-analysis of the deposited data

Results flagged for a closer look

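Among the 46 sets of 4 day 3 mice examined for the described windows and gene sums, 1 had a mouse far from the other 3. TIR1 replicate 1 had 14.7 CPM at the Gimap1 start-site window, against 10.9 to 11.5 CPM in the other TIR1 mice of that day, and it was the shallowest library. Chance gives such a gap in about 1 of 20 sets. The test of whether the genotype difference changed between days passed the threshold for 0 of 139 windows and 0 of 8 gene sums.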

How the results depend on the processing

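The count of member windows with an adjusted p under 0.05 was 0 in all 5 comparisons under each alternative run: DESeq2, size factors, total counts, loess offsets, no count filter, a mean count of at least 50, the mouse name prefix as a term, all 14 libraries for the day 7 and the day 3 fits, and each library left out. With edgeR it was 0 at a threshold of 0.1 too, while DESeq2 over both days had 1 member under 0.1 and gave no adjusted p for 210066 of 240778 windows. Over both days, for the interaction and between the days the count filter removed no window, so the run without it repeats the main one. At day 7 only TIR1 replicate 3 has its name prefix, so the prefix term sets that mouse apart, much as leaving it out does. The count of gene sums was 0 as well, also with windows within 10 kb or without overlapping windows and with the name prefix, which was added after seeing the data for the gene sums. A replicate block also left both counts at 0, and with loess offsets added that of windows. The replicate block moved the smallest adjusted p of a member for day 7 against day 3 to 0.304, and to 0.101 with loess offsets. Across alternatives the members' smallest adjusted p ranged from 0.321 to 1.00 at day 7, from 0.282 to 0.955 at day 3 and, over both days, from 0.0769 (DESeq2) to 0.75. The median member fold change stayed below 0 at day 3 (-0.13 to -0.04) and over both days (-0.09 to -0.03), and took both signs at day 7 (-0.05 to 0.03). Of 2117 refitted fold changes, 144 changed sign, and 13 moved by more than 1 SE. With both, the start-site window of Gimap6 at day 7 ran from -0.24 to 0.029 with 1 library left out, those of Gimap3 at day 3 from -0.13 to 0.10 and from -0.14 to 0.064, and the Gimap3 sum over both days was 0.0031 with windows within 10 kb. The cause was not tested. Over all windows the count with an adjusted p under 0.05 was 11 at day 7 and 0 to 52 under alternatives, 0 and 0 to 30 at day 3, 27 and 2 to 155 over both days, 0 and 0 to 19 for the interaction and 8 and 4 to 20 between days. Depth limits the weak windows: the one 17205 bases upstream of Gimap3, with a mean of 21.4 reads, had SEs of 0.32 at day 7 and 0.30 at day 3.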
